A study of Homo sapiens with 24 samples.

Results

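Mitosis and kinetochore genes are described here in A549 cells exposed to the synthetic glucocorticoid (GC) dexamethasone (dex). They are 49 genes of mitotic entry, the spindle, the kinetochore and chromosome structure, each given by its symbol. A gene's value is the sum of the counts of its transcripts, and the sums gave 42072 genes and unmatched transcripts (features) in all. Of these, 19897 had enough counts to be tested, among them all 49 mitosis and kinetochore genes. A549 cells are a human line established from an adenocarcinoma of the lung. Cells received 100 nM dex dissolved in ethanol, or the same volume of ethanol alone (EtOH, 0.02% of the medium), and poly-A RNA was sequenced after 1, 3, 5, 7, 9 or 11 h. Each of the 12 groups held 2 libraries labelled as biological replicates, 24 in all, and every group had the same line and serum-containing medium. Nothing in the labels says that replicates came from separate cultures, so p-values measure the spread between these libraries, which may be technical.

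A dividing cell enters mitosis when the kinase CDK1, bound to cyclin A or a B-type cyclin, becomes active. Chromosomes are then condensed and untangled, microtubules attach to kinetochores built on centromeric chromatin, and a checkpoint holds back the anaphase-promoting complex until attachment is complete. Most genes of this program are transcribed late in the cycle, with a peak in G2 and M phases, and their promoters often hold 2 short elements, the cell cycle genes homology region (CHR), bound by MuvB complexes, and CCAAT boxes, bound by NF-Y. GCs act through the GC receptor and are known to slow the division of many epithelial cells, A549 among them.

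Libraries held 6708864 to 13748598 counts with dex and 7813353 to 13619043 with EtOH. No single library stood apart, since the median correlation of a library with the other libraries ran from 0.966 to 0.985. The lowest medians were those of dex 5 h replicates 1 and 2 (0.9667 and 0.9662). Known GC targets responded: all 7 that could be tested were higher with dex at 5 h, with log2 fold changes of 4.50 for TSC22D3, 3.75 for FKBP5 and 3.47 for KLF9. Of the epithelial markers, the keratin genes KRT7, KRT8 and KRT18 had 6580 counts or more in every library. The others were lower, with 242 to 552 counts for CDH1, 70 to 252 for KRT19, 31 to 134 for EPCAM, 4 to 54 for MUC1 and 6 to 20 for CLDN4. Among the 9 alveolar type II markers ABCA3 had 206 to 541 counts, NAPSA 1 to 12 and no other more than 7, and SFTPA1 and SFTPA2 had 0 counts in all 24 libraries. Their sum was 24.8 to 37.3 CPM (counts scaled to library size, here with normalisation factors) with EtOH and 29.2 to 50.6 CPM with dex. The summed level of 8 epithelial markers ran from 3923 to 6378 CPM with EtOH and from 4576 to 12369.7 CPM with dex, and at 5 h 5 of the 8 were higher and 2 lower. Of 7 fibroblast markers, 4 could be tested and 1, COL1A1, was lower at 5 h (log2 fold change -1.20); their sum was 14.4 to 23.9 CPM with EtOH and 7.84 to 27.9 CPM with dex, and COL1A2 had at most 1 count in a library. The sum of leukocyte and endothelial markers stayed at 1.20 to 4.48 CPM, with CD3E at 0 counts throughout. The part of these marker shifts in the results on mitosis genes was not tested.

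Promoters of 7 of the genes are shown because they span the range of responses described below, from HJURP, LMNB1 and KIF11, which had fold changes among the larger ones at 5 h, through CCNB2 to PLK1, CDC20 and KIF20A, which did not pass the test. They were chosen after their values were seen. Each sequence is the 150 bases before the RefSeq start of the gene on GRCh38.p14, 5′ to 3′ on the gene's strand, with capitals marking the CHR letters (TTTGAA or TTCGAA) and CCAAT, each searched on both strands.
HJURP (chr2:233854536-233854685, minus strand): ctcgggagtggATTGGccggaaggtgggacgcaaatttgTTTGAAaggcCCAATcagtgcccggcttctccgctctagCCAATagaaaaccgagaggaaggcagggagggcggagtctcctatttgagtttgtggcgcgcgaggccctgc
LMNB1 (chr5:126776473-126776622, plus strand): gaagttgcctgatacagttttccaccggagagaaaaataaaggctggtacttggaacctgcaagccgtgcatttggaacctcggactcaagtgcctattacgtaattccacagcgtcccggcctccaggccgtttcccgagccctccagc
KIF11 (chr10:92592980-92593129, plus strand): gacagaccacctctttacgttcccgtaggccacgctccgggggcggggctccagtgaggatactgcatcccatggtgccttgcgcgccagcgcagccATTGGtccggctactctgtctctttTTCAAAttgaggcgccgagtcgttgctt
CCNB2 (chr15:59104996-59105145, plus strand): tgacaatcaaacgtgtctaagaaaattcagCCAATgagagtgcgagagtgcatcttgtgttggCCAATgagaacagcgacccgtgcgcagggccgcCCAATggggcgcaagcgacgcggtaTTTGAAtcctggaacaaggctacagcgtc
PLK1 (chr16:23678739-23678888, plus strand): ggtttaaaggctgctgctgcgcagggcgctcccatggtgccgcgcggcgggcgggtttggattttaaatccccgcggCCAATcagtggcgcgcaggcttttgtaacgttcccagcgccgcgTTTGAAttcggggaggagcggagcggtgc
CDC20 (chr1:43358831-43358980, plus strand): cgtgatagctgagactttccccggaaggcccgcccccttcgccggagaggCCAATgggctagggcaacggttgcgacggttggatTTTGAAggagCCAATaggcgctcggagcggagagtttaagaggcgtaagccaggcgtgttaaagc
KIF20A (chr5:138178962-138179111, plus strand): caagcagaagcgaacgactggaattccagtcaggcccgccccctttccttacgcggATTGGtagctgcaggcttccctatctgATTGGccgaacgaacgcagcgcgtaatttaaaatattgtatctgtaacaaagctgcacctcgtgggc

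The CHR letters were common to most of the genes. RefSeq promoters (250 bases before to 50 after the start) could be matched for 42 of the 49, and 31 of these 42 (73.8%) held TTTGAA or TTCGAA, compared with 16.6% of 27305 promoters in the table. CCAAT was found in 29 of the 42 (69.0%) and in 35.7% of all promoters. Both elements were present in 25 of the 42 (59.5%), against 6.58% of all promoters, and their letters shared a base in 2 of the genes. Neither was found in 7 of them, CDC25B, CDC25C, CENPE, KIF2C, CKAP2, TACC3 and LMNB1. A single RefSeq start was used for each gene, so letters near other starts would be missed here and in the comparisons below. By comparison, 2 of 37 promoters of S phase genes held the CHR letters and 22 held CCAAT, while the E2F letters TTTGGCGC or TTTCGCGC stood in 13 of the 37 (35.1%), in 2 of the 42 mitosis and kinetochore promoters (4.76%) and in 1.18% of all promoters. A match of letters describes these windows and is not evidence of binding.

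In EtOH, transcript levels of the genes spanned a wide range. Per length, as TPM computed from the counts and annotated transcript lengths (each library scaled to the same total), the median over 12 EtOH libraries was lowest for PSRC1, a spindle-associated protein, at 16.1 TPM, with a range of 11.5 to 20.1 TPM. The highest level was that of TOP2A, the topoisomerase that untangles sister DNA, at 1091 TPM (955.8 to 1272). Between them lay CCNB1, encoding cyclin B1, at 632 TPM, ANLN at 377 TPM, AURKA at 369 TPM and CDK1 at 340.0 TPM. Counts of the genes in a library ran from 58 to 21276, so the lowest of them carry more counting error than the others.

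No change with time was called in EtOH. Between 1 and 5 h, and between 1 and 11 h, 0 of the 49 genes passed edgeR's test in either direction (adjusted p at most 0.1, all 24 libraries in 1 fit). Of all features, 0.00503% were lower and 0.00503% higher at 5 h than at 1 h, and 0.0251% were lower and 0.0553% higher at 11 h. At an unadjusted p under 0.05 the genes numbered 7 and 5, and the same counts over all features were not made. DESeq2 called 0 and 1 of the 49 genes, where 52 of 9482 and 65 of 9867 features passed. With dex the same test called 36 of the 49 lower at 5 h than at 1 h and none higher. Of all features 13.5% were lower and 14% higher.

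**Figure D1:**
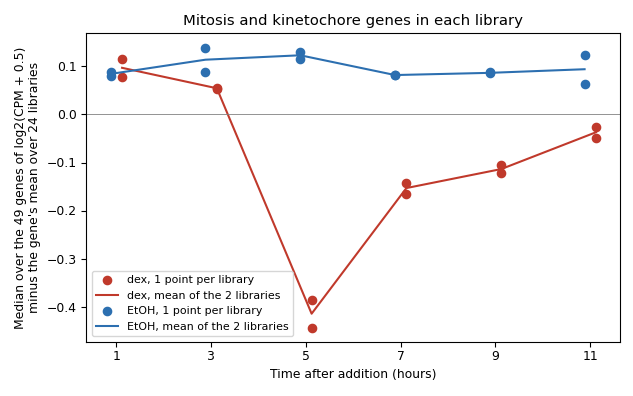
Each point is a library, placed by hours after addition (x axis) and by the median over the 49 genes of log2(CPM + 0.5) minus the gene's mean over 24 libraries (y axis); lines join the means of the 2 libraries. The EtOH points lie between 0.064 and 0.14 at all times. The dex points lie just below that range at 3 h (0.054 and 0.055) and far below it at 5 h (-0.44 and -0.38). By 11 h they lie at -0.048 and -0.025.

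The comparison of dex with EtOH at each time asks when these genes respond to the GC and for how long. Relative to each gene's own mean, the median of the 49 genes was 0.078 and 0.12 in the dex libraries at 1 h and 0.054 and 0.055 at 3 h. The values at 3 h were already just below the lowest EtOH library (0.064). The median stood at -0.44 and -0.38 at 5 h and at -0.16 and -0.14 at 7 h, again below every EtOH library. The plot of library medians shows the same drop between 3 and 5 h in both dex replicates. Because whole cultures were measured, a smaller number of cells in G2 and M phases and less RNA of these genes per cell cannot be told apart.

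At 5 h 44 of the 49 genes (89.8%) were lower with dex and 0 were higher, where 11.7% of all features were lower and 11.4% higher. All 49 fold changes were below 0, with a median log2 value of -0.51, a level 70.4% of that in EtOH, and the median of all features was 0.01. Both dex libraries lay below both EtOH libraries for every one of the 49, which was so for 27.2% of all features. The quartiles were -0.67 and -0.42, and the values ran from -1.15 to -0.14. DESeq2 called 41 of the genes lower and 0 higher, where 1333 of 18354 features (7.26%) were lower and 2660 passed in either direction. At an unadjusted p under 0.05 the counts were 46 and 0, and the same counts over all features were not made.

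At 1 h 0 of the genes passed in either direction, with a median of -0.04, where 0.337% of all features were lower and 0.488% higher. At an unadjusted p under 0.05 there were 3 genes, AURKA, CENPA and MKI67, all with values below 0, and DESeq2 called 0 (125 of 17968 features passed). Shares of all features at an unadjusted p under 0.05 were not computed, here or at the later times. At 3 h 4 genes were lower (median of the 49, -0.03) and 0 higher, where 5.02% of all features were lower and 7.85% higher. They were HJURP, ECT2, CDCA8 and CKAP2, with log2 fold changes of -0.55 ± 0.10, -0.46 ± 0.10, -0.38 ± 0.12 and -0.32 ± 0.11 (standard error, SE). DESeq2 called 2 lower (2.79% of all features) and 0 higher at 3 h. TPX2 was the only gene with an unadjusted p under 0.05 and a value above 0 (0.22). At 7 h 28 were lower (median -0.25) and 0 higher, where 12.4% of all features were lower and 13.4% higher. At 9 h 13 were lower (median -0.23) and 0 higher, against 8.78% and 9.31%. At 11 h HJURP alone was lower, 0 were higher and the median was -0.16, against 3.29% and 5.39%. No gene with a value above 0 had an unadjusted p under 0.05 at 7, 9 or 11 h, and DESeq2 called 0 higher at these times. Counts other than that at 5 h depended on single libraries, and the share of all features that were lower moved with them. Without dex replicate 1 or 2, 1 or 2 genes were lower at 1 h (0.965% or 1.95% of all features), 14 or 17 at 7 h (5.97% or 6.74%), 2 or 3 at 9 h (2.65% or 2.6%), and 16 or 8 at 11 h (12.9% or 7.39%). At 3 h there were 7 without dex replicate 2 (6.14%) and 2 without EtOH replicate 1 (2.84%). Without EtOH replicate 1 there were 21 at 9 h (15.9%), and without EtOH replicate 1 or 2 there were 0 at 11 h (1.4% or 1.52%).

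**Figure D2:**
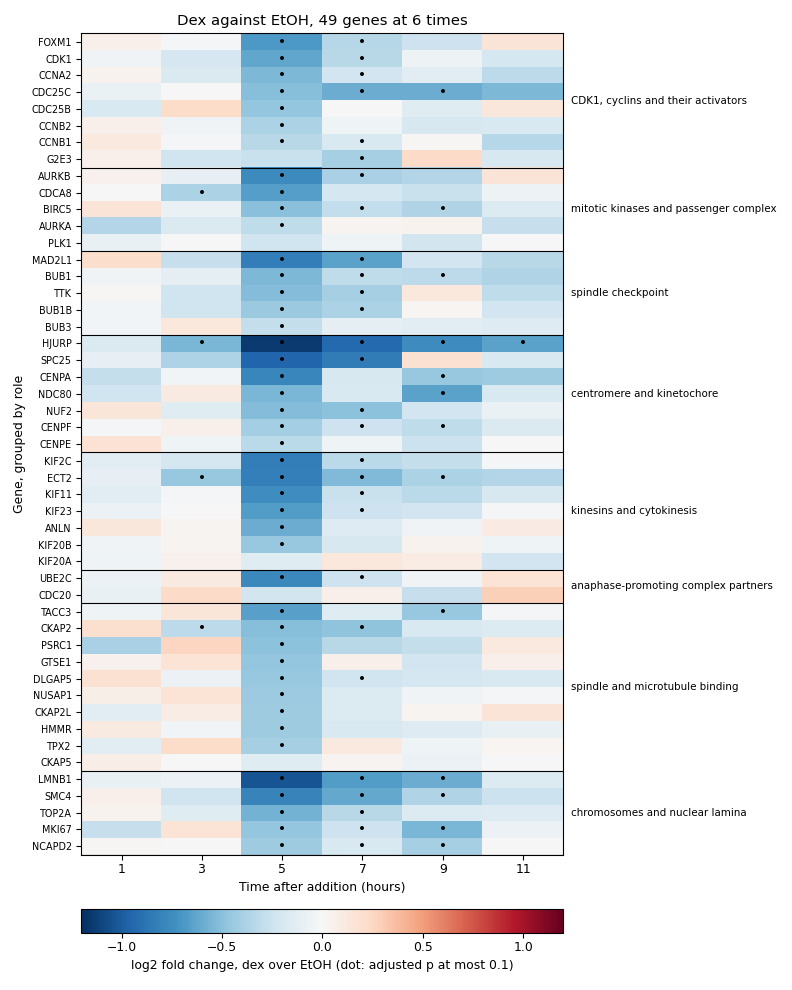
Colour gives the log2 fold change of dex over EtOH (n = 2 libraries each) for 49 genes, in rows grouped by role, at 6 times in columns, and a dot marks an adjusted p of at most 0.1. Every cell at 5 h is blue and 44 carry a dot, compared with 4 at 3 h, 28 at 7 h, 13 at 9 h and 1 at 11 h.

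The count of genes whose dex libraries both lay below both EtOH libraries followed the same course. It was 14 at 1 h and 17 at 3 h, where 18.4% and 23.8% of all features did so. After the 49 at 5 h it was 36 at 7 h (28.2% of all features), 30 at 9 h (28.0%) and 24 at 11 h (22.4%). The lowest of a gene's 6 fold changes fell at 5 h for 41 of the 49 genes, and the same count over all features was not made.

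CDK1, its cyclins and phosphatases, FOXM1 and G2E3 were lower at 5 h in 7 of 8 cases, with a median log2 fold change of -0.49. CDK1 itself stood at 205 and 192 CPM in the dex libraries and 297 and 314 CPM in the EtOH libraries, a log2 fold change of -0.62 ± 0.10 (SE, adjusted p = 4.40e-06). CCNA2, the cyclin of S and G2 phases, stood at 55.2 and 53.2 CPM in the dex libraries and 74.5 and 82.7 CPM in the EtOH libraries, and its level was 31.1% lower. The B-type cyclins had fold changes nearer to 0, and that difference was not tested. CCNB1 was at 357 and 319.8 CPM in the dex libraries and 465 and 391 CPM in the EtOH libraries (log2 fold change -0.34 ± 0.10). CCNB2 was at 90.5 and 83.8 CPM in the dex libraries and 111 and 115 CPM in the EtOH libraries (log2 fold change -0.38 ± 0.11). CDC25B and CDC25C are phosphatases that remove the inhibitory phosphates from CDK1. CDC25B was measured at 158 and 150.5 CPM in the dex libraries and 235 and 192 CPM in the EtOH libraries and fell by 27.7%, and CDC25C had a log2 fold change of -0.51 ± 0.17. FOXM1, a transcription factor that activates many genes of G2 and M phases, had the lowest fold change of the group (-0.69 ± 0.11), with 48.8 and 46.4 CPM in the dex libraries and 79.7 and 74.2 CPM in the EtOH libraries. G2E3, a ubiquitin ligase named for its expression in G2 and M phases, did not pass at 5 h (adjusted p = 0.119), with 45.1 and 44.4 CPM in the dex libraries and 51.5 and 56.2 CPM in the EtOH libraries. It passed at 7 h, with a log2 fold change of -0.39 ± 0.10.

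Of 5 mitotic kinases and passenger proteins 4 were lower at 5 h, and the group's median was -0.50. AURKB, the kinase of the chromosomal passenger complex, was at 14.6 and 15.4 CPM in the dex libraries and 28.3 and 22.9 CPM in the EtOH libraries, 41.2% lower. BIRC5 (survivin), which targets the same complex to centromeres, was at 69.0 and 76.5 CPM in the dex libraries and 107 and 99.2 CPM in the EtOH libraries, 29.2% lower. CDCA8 (borealin), another subunit of the complex, had a log2 fold change of -0.67 ± 0.13 and was among the few that had already passed at 3 h. AURKA acts at spindle poles and not in that complex. Its values were 303 and 328 CPM in the dex libraries and 355 and 425 CPM in the EtOH libraries, with a log2 fold change of -0.31 ± 0.10 and adjusted p = 0.0318, and in the fit over all 24 libraries it did not pass. PLK1, a kinase of mitotic entry, centrosomes and cytokinesis, was at 67.9 and 64.8 CPM in the dex libraries and 82.0 and 74.3 CPM in the EtOH libraries, a log2 fold change of -0.23 ± 0.11 that did not pass (adjusted p = 0.148).

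All 5 spindle checkpoint genes were lower at 5 h, with a median of -0.52. MAD2L1, the checkpoint protein that binds and inhibits CDC20, had the lowest fold change of the group, -0.83 ± 0.12, with 45.3 and 44.5 CPM in the dex libraries and 74.8 and 85.1 CPM in the EtOH libraries. The dex and EtOH libraries did not overlap. TTK, the kinase that starts checkpoint signalling, was at 77.0 and 76.2 CPM in the dex libraries and 102 and 118 CPM in the EtOH libraries. BUB1, a kinase bound to unattached kinetochores, was at 91.3 and 72.9 CPM in the dex libraries and 117 and 122 CPM in the EtOH libraries. BUB1B (BubR1), a component of the mitotic checkpoint complex, was at 64.7 and 61.8 CPM in the dex libraries and 83.5 and 89.0 CPM in the EtOH libraries. TTK, BUB1 and BUB1B were lower by 30.4%, 31.0% and 26.7%. The smallest change of the group was in BUB3, the partner that brings BUB1 and BUB1B to kinetochores, at 235 and 236 CPM in the dex libraries and 281 and 292 CPM in the EtOH libraries (log2 fold change -0.28 ± 0.10, adjusted p = 0.0397).

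Centromere and kinetochore genes were lower at 5 h in 7 of 7 cases, with a median of -0.55. HJURP, the chaperone that deposits the centromeric histone CENPA, had the lowest log2 fold change of all 49 genes, -1.15 ± 0.11 (adjusted p = 9.76e-12). Its values were 51.8 and 54.8 CPM in the dex libraries and 120.4 and 116 CPM in the EtOH libraries, so each dex library lay below each EtOH library. CENPA itself was lower by 42.0% (log2 fold change -0.79 ± 0.11). SPC25, NDC80 and NUF2 encode subunits of the 4-part complex that holds microtubule ends. SPC25 was at 10.6 and 11.1 CPM in the dex libraries and 18.6 and 23.2 CPM in the EtOH libraries, and its log2 fold change of -0.95 ± 0.17 was the third lowest of the 49. NDC80 and NUF2 had log2 fold changes of -0.55 ± 0.14 and -0.52 ± 0.12. CENPF, a large coiled-coil protein of the outer kinetochore, was at 226 and 169.7 CPM in the dex libraries and 254 and 269 CPM in the EtOH libraries. CENPE, the kinesin that moves chromosomes toward the spindle equator, was at 69.5 and 60.6 CPM in the dex libraries and 84.3 and 79.0 CPM in the EtOH libraries. Their log2 fold changes were -0.40 ± 0.11 and -0.33 ± 0.11, and CENPE did not pass with DESeq2.

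Kinesins and cytokinesis genes included members at both ends of the range, with 6 of 7 lower at 5 h and a median of -0.67. KIF11, the motor that pushes spindle poles apart, was at 239.6 and 232 CPM in the dex libraries and 373 and 418 CPM in the EtOH libraries and fell by 40.4%. KIF2C, a depolymerase that corrects wrong attachments, ECT2, the exchange factor that activates RhoA at the division plane, and KIF23, a subunit of centralspindlin, had log2 fold changes of -0.83 ± 0.14, -0.82 ± 0.11 and -0.67 ± 0.10. ANLN, a scaffold of the contractile ring, had -0.59 ± 0.10. KIF20A and KIF20B are kinesins of the same family that act late in mitosis. KIF20B was at 60.6 and 57.1 CPM in the dex libraries and 78.9 and 82.7 CPM in the EtOH libraries, 27.2% lower. KIF20A was at 108 and 100.3 CPM in the dex libraries and 120.1 and 110.3 CPM in the EtOH libraries, and its log2 fold change of -0.15 ± 0.11 did not pass (adjusted p = 0.397). The difference between these 2 kinesins was not tested.

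The 2 partners of the anaphase-promoting complex differed in their calls. UBE2C, the enzyme that loads ubiquitin for the complex, was at 41.7 and 36.2 CPM in the dex libraries and 76.2 and 57.7 CPM in the EtOH libraries, with a log2 fold change of -0.78 ± 0.13 (adjusted p = 8.93e-06). CDC20, its activator in mitosis, was at 52.5 and 50.8 CPM in the dex libraries and 67.3 and 53.5 CPM in the EtOH libraries, a log2 fold change of -0.22 ± 0.12 (adjusted p = 0.224). CDC20's dex libraries were close to its lower EtOH library, and the difference between CDC20 and UBE2C was not tested.

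Among 10 genes of spindle and microtubule binding 9 were lower at 5 h, with a median of -0.45. TACC3, which crosslinks kinetochore fibres, had the lowest value of the group (-0.65 ± 0.13). CKAP2, PSRC1, GTSE1, DLGAP5, NUSAP1, CKAP2L, HMMR and TPX2 lay between -0.51 and -0.40. TPX2 is the activator of AURKA on spindle microtubules. CKAP5, the microtubule polymerase that works with TACC3, was at 191 and 174 CPM in the dex libraries and 204 and 199.99 CPM in the EtOH libraries, and its log2 fold change of -0.14 ± 0.10, the smallest in size of all 49, did not pass (adjusted p = 0.379).

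The 5 genes of chromosome structure and the nuclear lamina were all lower at 5 h, with a median of -0.57. LMNB1, encoding lamin B1 of the nuclear envelope, was at 69.6 and 64.4 CPM in the dex libraries and 139 and 135 CPM in the EtOH libraries, a log2 fold change of -1.03 ± 0.11 that was second to HJURP. TOP2A, whose level per length was the highest, was at 1094 and 897 CPM in the dex libraries and 1459.8 and 1488 CPM in the EtOH libraries and fell by 32.5%. MKI67, the proliferation antigen that coats mitotic chromosomes, was at 243 and 173 CPM in the dex libraries and 290.5 and 285 CPM in the EtOH libraries. Its dex replicates lay further apart than its EtOH replicates, and its log2 fold change was -0.47 ± 0.12. SMC4 and NCAPD2, subunits of condensin, had log2 fold changes of -0.80 ± 0.10 and -0.43 ± 0.10.

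**Figure D3:**
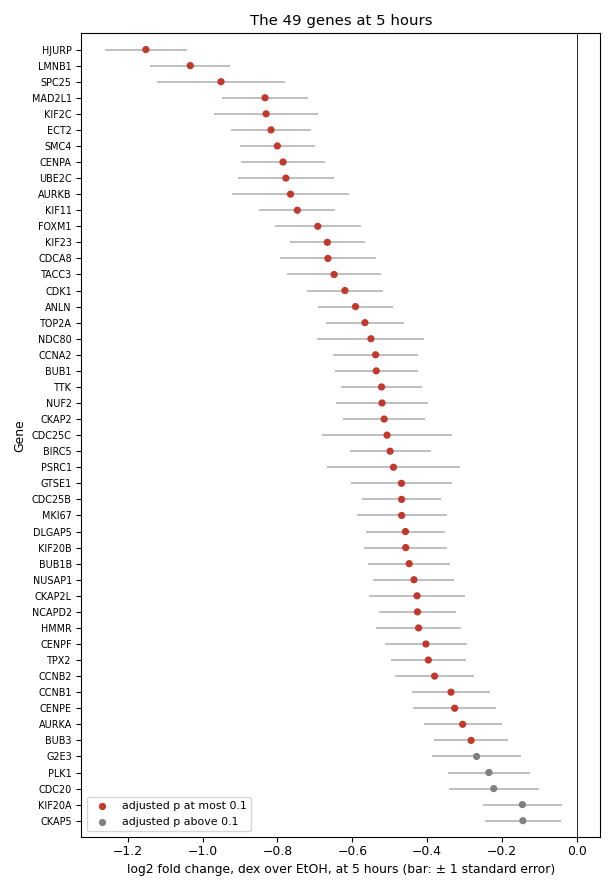
Each point is the log2 fold change of a gene, dex over EtOH, at 5 h (x axis, n = 2 libraries each), with a bar of 1 SE on either side, and genes are sorted from lowest to highest. All 49 points lie left of 0, and the 5 in grey (G2E3, PLK1, CDC20, KIF20A and CKAP5) did not pass the test.

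Some calls at 5 h changed with single libraries or settings, including calls far below the threshold in the main edgeR test. There MKI67, CENPF and AURKB had adjusted p of 0.0059, 0.0070 and 0.000168. The log2 fold changes of CENPF and MKI67 were -0.21 and -0.24 without dex replicate 2, that of CCNB1 was -0.21 without EtOH replicate 1 and that of AURKA was -0.17 without EtOH replicate 2, and none of these passed. CENPE, without dex replicate 2 or EtOH replicate 1, and BUB3, without either dex replicate or EtOH replicate 2, did not pass either. CDC20 had -0.38 without EtOH replicate 2 and then passed. AURKB and AURKA did not pass when transcripts were tested singly and each gene was read from its most counted transcript. That transcript held 19.6% of AURKB counts and 11.9% of AURKA counts. PLK1 and G2E3 passed with total counts and no scaling.

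At 7 h, where 12.4% of all features were lower, the chromosome and lamina genes were lower in 5 of 5 cases (median -0.33), the checkpoint genes in 4 of 5 (-0.38) and CDK1 with its cyclins and activators in 6 of 8 (-0.28). Centromere and kinetochore genes were lower in 4 of 7 cases (-0.25) and kinesins and cytokinesis genes in 4 of 7 (-0.25), while 2 of 5 mitotic kinases and passenger proteins, 2 of 10 spindle and microtubule genes and UBE2C of the anaphase-promoting complex partners passed. CDK1 stood at 243 and 234 CPM in the dex libraries and 298 and 304 CPM in the EtOH libraries at 7 h, between its 5 h dex values and EtOH. LMNB1 stood at 79.2 and 78.9 CPM in the dex libraries and 130.0 and 122 CPM in the EtOH libraries (log2 fold change -0.67 ± 0.08). At 9 h, where 8.78% of all features were lower, the calls were in 4 of 5 chromosome and lamina genes (-0.40) and in 4 of 7 centromere and kinetochore genes (-0.31), with 1 each in 5 of the other 6 groups. NDC80 stood at 21.1 and 19.1 CPM in the dex libraries and 30.8 and 31.4 CPM in the EtOH libraries at 9 h, and its log2 fold change of -0.64 ± 0.14 was the second lowest of the 49 at that time. MKI67 stood at 226 and 261 CPM in the dex libraries and 332 and 380.4 CPM in the EtOH libraries. CDK1 libraries overlapped at 9 h, with 277 and 247 CPM in the dex libraries and 288 and 256 CPM in the EtOH libraries.

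The times at which a gene passed varied, and differences in duration between genes were not tested. HJURP passed at every time from 3 to 11 h, and no other gene passed at 11 h. HJURP libraries with dex held 80.0 and 80.1 CPM at 3 h, 57.2 and 53.9 CPM at 7 h, 70.2 and 68.0 CPM at 9 h and 73.9 and 73.1 CPM at 11 h, and no EtOH library held fewer than 105 CPM. ECT2 passed at 3, 5, 7 and 9 h. The genes that passed at 5, 7 and 9 h numbered 10, among them LMNB1, MKI67, BIRC5, BUB1, CENPF, CDC25C and the condensin genes SMC4 and NCAPD2. A further set of 13 passed at 5 h and at no other time, among them CCNB2, CDC25B, AURKA, BUB3, CENPE, TPX2 and ANLN. How many of all features showed these patterns of calls was not computed. PLK1, CDC20, KIF20A and CKAP5 passed at no time. CDC25C had log2 fold changes of -0.51, -0.59, -0.60 and -0.54 from 5 to 11 h, although the last did not pass (adjusted p = 0.185). SPC25 was at 16.3 and 17.7 CPM in the dex libraries and 33.0 and 27.4 CPM in the EtOH libraries at 7 h, whereas at 9 h its dex libraries (25.1 and 17.9 CPM) and EtOH libraries (19.3 and 18.04 CPM) overlapped.

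**Figure D4:**
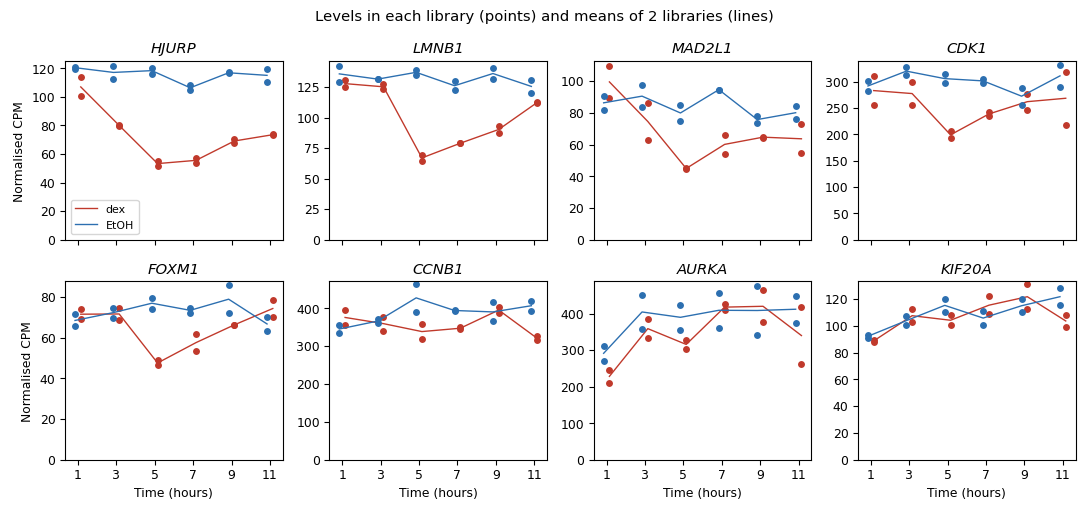
Normalised CPM (y axes, from 0) in each library against hours after addition for 8 genes, with points for libraries and lines for the means of 2 libraries. HJURP with dex stays at 80.1 CPM or less from 3 h on, LMNB1, MAD2L1, CDK1 and FOXM1 are lowest with dex at 5 h, and the dex points of CCNB1, AURKA and KIF20A lie nearer to those of EtOH.

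Whether the dex effect itself changed between times was tested with all 24 libraries in 1 fit. It was more negative at 5 h than at 3 h for 22 of the 49 genes and less so for 0. Of all features 3.82% had a lower effect and 2.19% a higher one. All 49 differences were below 0, with a median of -0.46. LMNB1 (-0.96 ± 0.13, SE), UBE2C (-0.88 ± 0.19) and TACC3 (-0.79 ± 0.19) had the lowest values. From 5 to 11 h the effect moved back up for 11 genes, with a median difference of 0.41 over the 49, where 1.76% of all features had a higher effect. These 11 were UBE2C, AURKB, LMNB1, FOXM1, KIF2C, ANLN, KIF23, CKAP2L, KIF11, SMC4 and HJURP. HJURP had the smallest of the 11 differences (0.51 ± 0.13, adjusted p = 0.0474). With the transcripts tested singly, 13 and 4 genes passed these tests. The first count fell without dex 3 h replicate 1, dex 5 h replicate 2, EtOH 3 h replicate 1 or EtOH 5 h replicate 1. The second fell without EtOH 5 h replicate 1 or either EtOH 11 h replicate. Counts over all features were not made for these fits without 1 library.

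Within the dex libraries, 9 genes were lower and 3 higher at 11 h than at 1 h, where 8.48% of all features were lower and 11.8% higher. CDC25C (-0.72 ± 0.16, SE), MAD2L1 (-0.65 ± 0.14) and HJURP (-0.54 ± 0.09) had the lowest differences. The 3 that were higher were AURKA (0.57 ± 0.21), PSRC1 (0.48 ± 0.17) and CDC25B (0.47 ± 0.13). The same genes had differences of 0.50 ± 0.21, -0.02 ± 0.16 and 0.14 ± 0.13 between 11 and 1 h in EtOH, none of which passed. The value of AURKA in EtOH was thus close to that with dex. Whether the changes with dex and in EtOH differed was not tested. Fewer of the 49 genes passed without dex 1 h replicate 1, and the count over all features was not made for that fit.

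Across the 49 genes, the fold changes at 5 h went with those at 7 h more than with those at other times. Pearson's r was 0.76 with 7 h, 0.50 with 3 h, 0.44 with 9 h and 0.27 with 11 h, and Spearman's rho was 0.69, 0.44, 0.42 and 0.20. These are descriptions across genes measured in the same libraries, and genes are not independent replicates. By promoter letters, the median log2 fold change at 5 h was -0.49 for the 31 with the CHR letters and -0.51 for the 11 without, and -0.47 for the 25 with both elements and -0.51 for the 7 with neither. Of the promoters printed above, those of HJURP, KIF11, CCNB2, PLK1 and CDC20 had both elements. HJURP (log2 fold change -1.15), KIF11 (-0.75) and CCNB2 (-0.38) passed at 5 h, and PLK1 and CDC20 did not. LMNB1 had no capitals and passed (-1.03), and KIF20A had CCAAT alone and did not pass. A link between the letters and the fold changes was not tested.

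Other genes of mitosis moved in the same direction in most cases. Of 111 that are not among the 49, 71 were lower and 2 higher at 5 h, with a median of -0.42, where 11.7% of all features were lower and 11.4% higher. The centromere and kinetochore genes among them were lower in 23 of 35 cases, with DSN1 (-1.18), a subunit of the Mis12 complex, CENPQ (-1.15) and SKA3 (-1.08) the lowest. Of 18 kinases, cyclin partners and CDK1 regulators 14 were lower, led by HASPIN (-1.23), which phosphorylates histone H3, and by PKMYT1 (-1.21) and WEE1 (-1.15), the kinases that hold CDK1 inactive. Spindle, kinesin and cytokinesis genes were lower in 19 of 24 cases, with KIF18A (-1.04), DEPDC1B (-0.91) and CDCA2 (-0.88) the lowest. Condensin, cohesin and lamina genes were lower in 10 of 18, with NCAPH (-0.81), NCAPG (-0.74) and SMC2 (-0.74), all condensin subunits, at the bottom. Of 16 genes of the anaphase-promoting complex and anaphase 5 were lower and 2 higher, with a median of -0.12. FBXO5 (-1.01), an inhibitor of that complex, ESPL1 (-0.67), the separase that cuts cohesin, and UBE2S (-0.32) had the largest changes of this list.

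Genes of S phase, which copy the DNA before mitosis, are the nearest other group of the cell cycle. At 5 h 43 of 44 tested were lower, where 11.7% of all features were, with a median of -1.15 beside -0.51 for the 49 mitosis and kinetochore genes. CDT1 (-1.98) and CDC6 (-1.87), which license replication origins, and CLSPN (-1.67), a replication checkpoint protein, had the largest changes. At 7, 9 and 11 h 44, 34 and 2 of the S phase genes were lower, with medians of -0.80, -0.60 and -0.22, where 12.4%, 8.78% and 3.29% of all features were lower. Both groups were thus lowest at 5 h, and the difference between their medians was not tested.

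**Figure D5:**
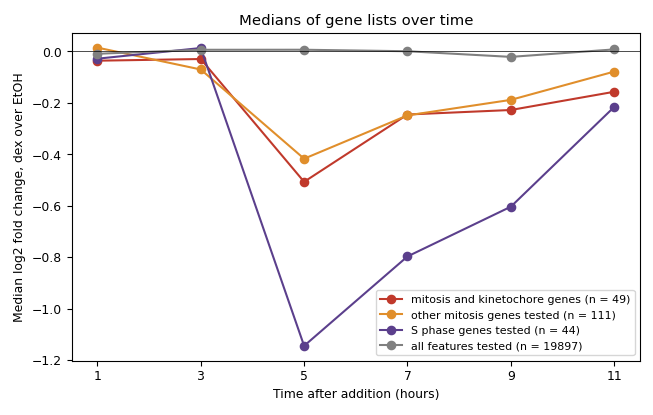
Median log2 fold change of dex over EtOH (y axis) at each time (x axis, hours) for the 49 mitosis and kinetochore genes, 111 other mitosis genes, 44 S phase genes and all 19897 features tested. All 3 lists have their lowest median at 5 h (-0.51, -0.42 and -1.15), while the median of all features stays between -0.02 and 0.01.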

How the data were processed

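Poly-A RNA of A549 cells was sequenced in 24 libraries, 2 for each of dex and EtOH at 6 times, and groups were taken from the labels. The labels' treatment text gives 1 h for every library, so the duration field was used; the study's methods state triplicates, and the labels used here give 2 replicates. The authors mapped single-end reads from stranded libraries to GENCODE transcripts (hg19) with Bowtie and deposited raw counts per transcript from SAMtools, not divided by depth or length. How reads matching several transcripts were placed, and whether strand was used in counting, is not given in the sources used here, so near-identical copies and overlapping genes are uncertain. The row for unplaced reads held 0 counts.

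Transcripts were summed per gene through GENCODE release 29 by identifier without version (110262 of 119207 transcripts, 94.1% of counts), and the others stayed as features. edgeR 4.0.16 (R 4.3.3) tested counts with TMM scaling, filterByExpr over 12 groups and robust quasi-likelihood F-tests, at each time on its 4 libraries, with Benjamini-Hochberg adjustment over 19897 features and a threshold of 0.1. Contrasts across times used 1 fit over 24 libraries. SE was taken as |log2 fold change| over the root of F. CPM are TMM-scaled. The code of the test was also run on counts simulated with the spread that edgeR had fitted. Few features were changed there, so that run does not show how the test performs on these data. The median library held 10109393.5 counts, and the biological coefficient of variation ran from 6.48% (7 h) to 12.7% (11 h).

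The members and lists were chosen with earlier results of these data known. Values in every library are given for 27 members set by name and for the 3 lowest and 3 highest at 5 h, and of each other list the 3 with the largest changes that passed are named. Alternatives were DESeq2 1.42.0, its size factors in edgeR, total counts without scaling, no filter, a joint fit of all groups, a block for the replicate number, at least 10 counts in every library, a threshold of 0.05, transcripts not summed, and leaving out each replicate. Where transcripts were not summed, a gene was represented by its most counted transcript.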

Additional observations from a re-analysis of the deposited data

Results flagged for a closer look

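The results below met a rule for differences between time points, in which the dex effect (dex minus EtOH, log2) differed between 2 times in edgeR's fit of all 24 libraries (adjusted p at most 0.1, Benjamini-Hochberg over all features). Groups of 2 libraries were too small for a rule on single outlying samples.

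Between 3 and 5 h the effect became more negative for 22 of the 49 genes. Among chromosome and lamina genes the difference was -0.96 for LMNB1, -0.56 for SMC4, -0.43 for NCAPD2 and -0.42 for TOP2A. Genes of the centromere and kinetochore gave -0.76 for CENPA, -0.65 for NDC80 and -0.60 for HJURP. Kinesins and cytokinesis genes gave -0.73 for KIF11, -0.67 for KIF23, -0.62 for ANLN, -0.62 for KIF2C and -0.49 for KIF20B. Spindle and microtubule genes gave -0.79 for TACC3, -0.75 for PSRC1, -0.63 for GTSE1, -0.61 for TPX2, -0.60 for NUSAP1, -0.51 for CKAP2L and -0.39 for DLGAP5. UBE2C, CDC25B and FOXM1 gave -0.88, -0.68 and -0.68.

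Between 5 and 11 h the effect became less negative for 11 genes. The differences were 0.94 for UBE2C, 0.92 for AURKB, 0.87 for LMNB1, 0.85 for FOXM1, 0.80 for KIF2C and 0.69 for ANLN. They were 0.64 for KIF23, 0.58 for CKAP2L, 0.56 for KIF11, 0.55 for SMC4 and 0.51 for HJURP.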

How the results depend on the processing

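The count of lower genes at 5 h (44) ran from 37 to 39 when a replicate was left out, and it and the count of 36 between 5 and 1 h with dex (31 to 36 without a replicate) stayed within 1.5 times under every alternative run. Other counts moved more, and the cause was not tested. The share of all features lower, in brackets, moved with the setting too. With DESeq2, 2 genes were lower at 3 h (2.79%) and 7 at 9 h (4.83%). DESeq2 also found 1 gene, and 65 of 9867 features, that differed between 11 and 1 h in EtOH. With total counts and no scaling, 7 were lower at 3 h (5.94%) and 2 at 11 h (3.79%). With 1 fit over 24 libraries, 18 were lower at 7 h (8.86%) and 8 at 11 h (6.28%). With transcripts not summed, 7 were lower at 9 h (5.83%) and 2 at 11 h (2.79%). In that setting 13 genes, and 659 of 19111 features, had effects that differed between 5 and 3 h. Between 11 and 5 h these were 4 genes and 160 features. With no filter, 1 gene differed between 5 and 1 h and 1 between 11 and 1 h in EtOH, where 302 and 206 of 34335 features did. Of 29 named genes, none changed the sign of its fold change at 5 h under any alternative, and other results were not compared by sign. Among genes tested singly at 5 h, 18 combinations of a gene and an alternative lost a call, 3 gained one and 356 did neither.

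Leaving out a replicate leaves 1 library against 2, and the lone library is then assumed to vary like the others. Lower genes then numbered 0 to 2 at 1 h, 2 to 7 at 3 h, 14 to 29 at 7 h, 2 to 21 at 9 h and 0 to 16 at 11 h. In some of these fits genes also passed as higher at times other than 5 h, and none did at 5 h. The share of all features that were higher was not computed, so these calls were not read further. Effects that differed numbered 13 to 19 for 5 against 3 h, 4 to 15 for 11 against 5 h, and 5 to 18 for 11 against 1 h with dex.

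Dex and EtOH libraries share replicate numbers, but the labels do not say that a number marks a shared culture or day, and deviations of same-numbered libraries correlated between -0.0588 and 0.135, so they were not treated as pairs. With the replicate number as a block (replicate block), 2 genes were lower at 1 h and 3 at 11 h, where 1.35% and 4.13% of all features were. The other counts stayed within 1.5 times. The counts of the 49 genes ran from 58 to 21276 per library, and what depth limits was not tested.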
